A study of Mus musculus with 12 samples.

Results

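The proteasome subunits of the mouse were followed from embryonic stem (ES) cells into embryoid bodies, the floating aggregates in which such cells differentiate. Members were the genes whose names begin with Psma, Psmb, Psmc, Psmd, Psme, Psmf or Psmg followed by a number and which reached 1 FPKM in at least 2 of the 12 libraries. FPKM, fragments per kilobase of transcript scaled to the reads mapped, is a level set relative to transcript length and to library depth. Of 48 such names among the 54537 genes of the table, 47 were members. Psmb11, a catalytic subunit of thymus epithelium, was listed at 0 in all 12 libraries and was left out.

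Poly(A) RNA came from 2 lines, one labelled WT+1343KO-a14 (the 1343KO line here) and one labelled WT. Each line was sampled as ES cells in medium with serum and leukaemia inhibitory factor (day 0), and after 8 and 16 days as floating embryoid bodies in serum without that factor, with 2 libraries in each of the 6 groups. The labels do not name the gene behind the line's number, and the 1343KO line is a single line, so the knockout and other differences between the lines cannot be told apart. Snhg3, the host gene of SNORA73, the small nucleolar RNA in the title of the series, was listed between 0 and 1.57 FPKM in the 6 1343KO libraries and between 8.31 and 61.1 FPKM in the 6 WT libraries. The depth estimated from the lowest values was 4.815e+06 to 7.915e+06 fragments a library, so 1 FPKM stood for about 4.8 to 7.9 fragments per kilobase, and levels near or under 1 FPKM are imprecise.

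The 26S proteasome degrades proteins that carry ubiquitin chains. Its barrel, the 20S core, is built of alpha and beta subunits, and the peptide bonds are cut by the beta subunits Psmb5, Psmb6 and Psmb7. A cap of a base, with a ring of ATPases that unfold the substrate, and a lid, which removes the ubiquitin, feeds the barrel. Under interferon gamma, and constitutively in immune cells, Psmb8, Psmb9 and Psmb10 take the place of Psmb5, Psmb6 and Psmb7 to form the immunoproteasome, and the activator PA28 (Psme1 and Psme2) can replace the cap. Human ES cells are known for a high proteasome activity that declines on differentiation. The RNA levels given here are not a measure of proteasome activity.

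The 47 members held 8 alpha subunits, 4 beta subunits without catalytic activity, the 3 constitutive catalytic subunits, the 3 immunoproteasome subunits, 6 ATPases and 3 other subunits of the base, 8 subunits of the lid, 7 assembly chaperones, 4 activator subunits and 1 inhibitor. Without Psma8, an alpha subunit known mainly from testis, the alpha, constitutive beta, base and lid subunits made a set of 31 core members; Psma8 was set aside after its values were seen. The 31 core members were abundant in every group. Their median was 99.8, 92.1 and 93.5 FPKM in the 1343KO line at days 0, 8 and 16, and 104.2, 72.4 and 63.2 FPKM in WT. Psma2 was the lowest of the 31 and Psmb6 the highest in each of the 6 groups. At the other end stood Psmb8 and Psmb9, which stayed under 8 and 4 FPKM in each library.

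Summed over the 31 core members, the RNA came to 3666 and 3496 (day 0), 3407 and 3146 (day 8), and 3199 and 3166 FPKM (day 16) in 1343KO. The sums in WT were 3673 and 3622 (day 0), 2247 and 2341 (day 8), and 1926 and 1951 FPKM (day 16). The lines overlapped as ES cells and did not overlap at days 8 and 16, where each 1343KO library was above each WT library. The core members were also taken as a share of all FPKM in the library, which does not depend on scaling between libraries. This share was 0.639% and 0.636% in 1343KO against 0.419% and 0.435% in WT at day 16. It was 0.658% and 0.616% against 0.506% and 0.518% at day 8, and 0.754% and 0.728% against 0.765% and 0.753% at day 0. At day 8 all FPKM of a library summed to 517962 and 510811 in 1343KO and to 444355 and 452057 in WT.

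**Figure D1:**
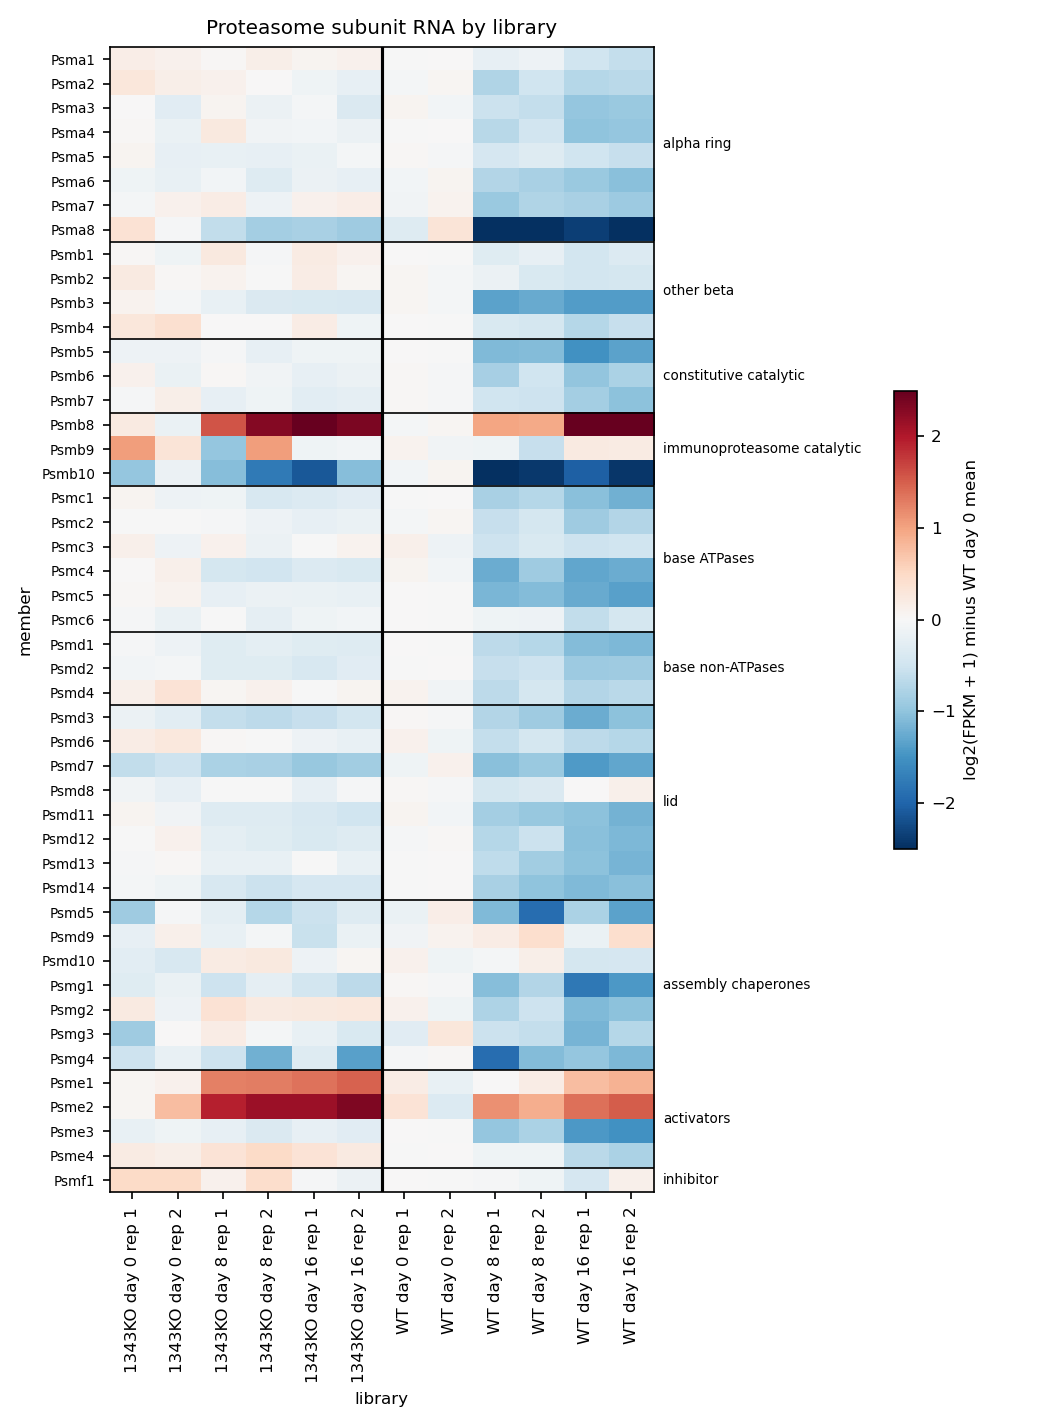
Level of each of the 47 members (rows, by subcomplex) in each of the 12 libraries (columns, 1343KO left of WT), as log2(FPKM + 1) minus the mean of the WT day 0 libraries; the colour scale ends at 2.5 on either side. Most rows turn blue in the WT libraries of days 8 and 16 and stay pale in the 1343KO libraries, while Psmb8, Psme1 and Psme2 turn red.

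As ES cells the lines differed in 1 member. Tests are of log2(FPKM + 1) in limma with Benjamini-Hochberg adjustment over the 16289 genes that passed the same filter on low values, a gene was called at an adjusted p under 0.05, and changes on this scale understate those of low genes. At day 0, 0 members were higher and 1 was lower in 1343KO, against 3.71% of all genes called in either direction. The called member was Psmd7, a lid subunit encoded on chromosome 8. Psmd7 stood at 115 and 122 FPKM in 1343KO and at 164 and 190.5 FPKM in WT, without overlap (log2 difference -0.57 ± 0.08 (SE), adjusted p = 0.00785). It was no longer called once WT day 0 replicate 2 was left out, with no filter (adjusted p = 0.0508) and on the 4 day 0 libraries alone (0.203). Without either of the 1343KO day 16 replicates, a member higher in 1343KO was called beside Psmd7. Genes of chromosome 8 were lower as a group in 1343KO at day 0: the median log2 difference of 503 of them with a mean of at least 5 FPKM was -0.40, against 0.01 for 9091 genes elsewhere. The part of this shift in the Psmd7 result was not tested.

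At day 8 the 1343KO line held more RNA of most proteasome subunits than WT. Of the 47 members 37 were higher and 0 lower in 1343KO, while 23.3% of all genes were called higher and 19.6% lower. The members' median log2 difference was 0.53, and that of all genes tested was 0.06. Among the 31 core members 27 were higher, by a median of 0.43, and Psma5, Psmc6, Psmd3 and Psmd7 did not pass. The count of members depended on scaling: TPM scaling gave 24, and median-of-ratios scaling 32. Under TPM scaling the median of all genes was -0.09 and that of the members 0.34. All genes tested split into 3788 higher and 3185 lower in the fit as given and into 2834 higher and 4075 lower with TPM scaling.

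At day 16 the members' median difference was larger than at day 8 in the fit as given. With median-of-ratios scaling it was 0.43 at day 8 and 0.45 at day 16. The line differences of these days were not compared by a test. In 1343KO 38 members were higher and 0 lower than in WT, against 28.5% of all genes called higher and 24.1% lower, with a median log2 difference of 0.66 for the members and 0.07 for all genes. Of the 31 core members 30 were higher, by a median of 0.68, and the exception was the lid subunit Psmd8. Besides Psmd8, those that did not pass were the 3 immunoproteasome subunits, the chaperones Psmd5, Psmd9, Psmg3 and Psmg4, and the inhibitor Psmf1. With median-of-ratios scaling, which moved the median of all genes to -0.07, 34 members were higher and 2 lower (Psmd8 and Psmd9), the members' median was 0.45, and all genes split into 3672 higher and 4875 lower in place of 4639 and 3931.

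Within WT the subunits fell along the culture. From day 0 to day 8, 35 members fell and 2 rose, against 24.5% and 26.8% of all genes, and the members' median log2 change was -0.59 where that of all genes was 0.00. To day 16, 40 members fell and 3 rose against 28.5% and 32.7% of all genes, with a median of -0.94 for the members and 0.02 for all genes. The 3 that rose were Psmb8, Psme1 and Psme2, and Psmb9, Psmd8, Psmd9 and Psmf1 did not pass. Between day 8 and day 16, 20 members fell and 3 rose (13.5% and 14.1% of all genes). That last count of 20 falls was 10 without WT day 8 replicate 2 or without WT day 16 replicate 1.

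In the 1343KO line the same culture moved fewer members. To day 8, 10 members fell and 4 rose, against 8.51% and 15% of all genes, with a median of -0.13 for the members and 0.07 for all genes. To day 16, 16 fell and 3 rose against 8.6% and 18.2%, with medians of -0.16 and 0.11. All 10 of the falls at day 8 and 14 of the 16 at day 16 were in the core set, where the medians were -0.15 and -0.20. The number of called falls depended on single libraries, and that of called rises did so less. The members' median change to day 8 stayed negative when a 1343KO library of day 0 or day 8 was left out, from -0.16 to -0.10. At day 8, 3 fell and 4 rose without 1343KO day 0 replicate 1, 4 fell and 4 rose without day 0 replicate 2, 5 fell and 3 rose without day 8 replicate 1, and 1 fell and 3 rose without day 8 replicate 2, so that the balance of falls over rises did not hold in 3 of these 4 fits. At day 16, with 3 rises each time, 8 fell without 1343KO day 0 replicate 1, 6 without day 0 replicate 2, 5 without day 16 replicate 1 and 6 without day 16 replicate 2. From day 8 to day 16 limma called 0 members and 0.804% of all genes, and 1 member had an unadjusted p under 0.05.

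The difference between the lines' changes was tested directly. In the change from day 0 to day 8 it was called in favour of 1343KO for 25 members and for 15.6% of all genes. It was called against 1343KO for 0 members and for 12.7% of all genes. In the change to day 16 it was 34 members in favour and 0 against, beside 21.7% of all genes in favour and 18.2% against. Of the 31 core members, 19 and 27 were among these. The day 8 count was 13 with TPM scaling. The comparisons share libraries: each line's day 0 libraries enter both of its changes, and the same day 16 libraries enter the contrast of the lines at day 16.

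**Figure D2:**
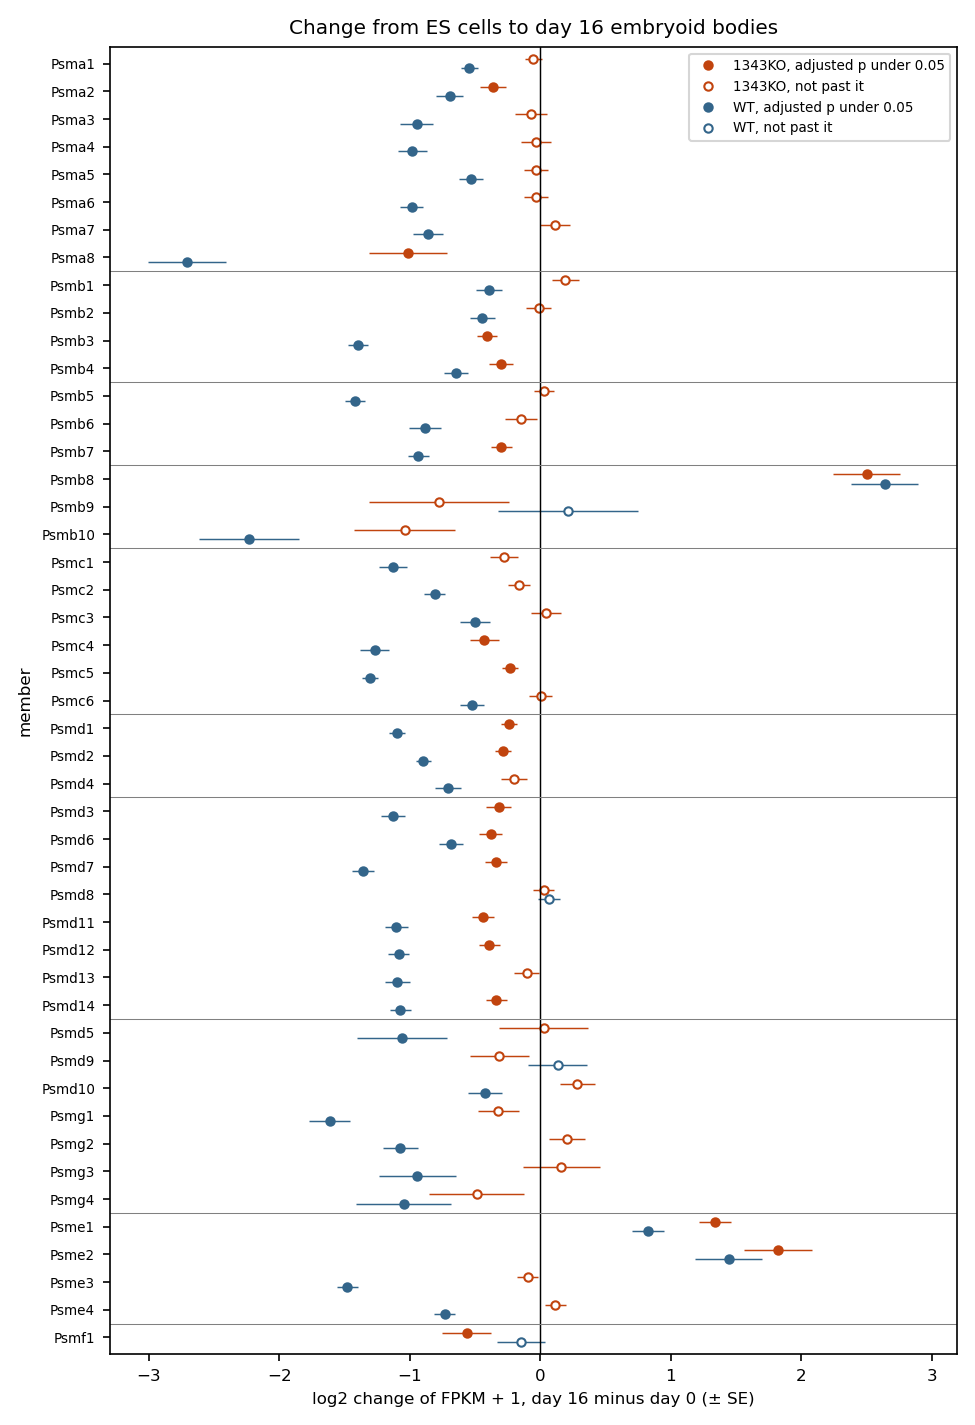
Change of log2(FPKM + 1) from day 0 to day 16 for each of the 47 members, with its SE from the limma fit, for the 1343KO line (upper point of each pair) and WT (lower point); filled points have an adjusted p under 0.05. The WT points of the core members lie left of the 1343KO points, with Psmd8 as the exception, and Psmb8, Psme1 and Psme2 lie right of 0 in both lines.

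The 3 constitutive catalytic subunits fell in WT and were higher in 1343KO at both later days, Psmb5 by the most. Psmb5, which cuts after hydrophobic residues, was at 141 and 141 FPKM at day 0, 151 and 135 at day 8, then 143 and 144 at day 16 in 1343KO. In WT it was at 157 and 153, 71.6 and 72.5, and 53.7 and 60.9 FPKM on the same days. The groups did not overlap at days 8 and 16. The log2 difference was 0.98 ± 0.08 (SE) at day 8 (adjusted p = 1.1e-05) and 1.32 ± 0.08 at day 16 (adjusted p = 9.12e-07). WT fell by 1.42 to day 16 (adjusted p = 3.1e-07), and the change in 1343KO was 0.03 (adjusted p = 0.842).

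Psmb6, which cuts after acidic residues, stood at 241 and 201, 229.7 and 211, and 195 and 202 FPKM in 1343KO at days 0, 8 and 16, against 229.5 and 219, 126 and 159, and 114 and 129 FPKM in WT. Its 1343KO libraries were above those of WT at day 8 (0.63 ± 0.12, adjusted p = 0.00254) and day 16 (0.71 ± 0.12, adjusted p = 0.000941). Psmb7, which cuts after basic residues, stood at 160.1 and 179, 140.2 and 150.4, and 136 and 139 FPKM in 1343KO, against 166 and 159.6, 115 and 113, and 90.3 and 78.9 FPKM in WT. Its libraries did not overlap at days 8 and 16 either. The difference was 0.35 ± 0.08 at day 8 (adjusted p = 0.00684, and 0.168 with TPM scaling) and 0.70 ± 0.08 at day 16 (adjusted p = 7.43e-05). Psmb7 overlaps Nek6, listed at a mean of 13.3 FPKM, and the sources used here do not say whether counting used strand.

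Each of the 3 immunoproteasome subunits had its own course. Psmb8, the counterpart of Psmb5, had 0.499 and 0.143 FPKM at day 0, 2.82 and 5.26 at day 8, then 7.37 and 5.56 at day 16 in 1343KO. In WT it had 0.237 and 0.319, 1.52 and 1.47, and 6.71 and 7.20 FPKM. It was at or near the lowest measurable level in ES cells and rose in both lines, with overlapping ranges at day 16. To day 16 Psmb8 rose by a log2 change of 2.501 ± 0.26 (SE) in 1343KO (adjusted p = 0.000163) and of 2.64 ± 0.26 in WT (adjusted p = 1.7e-05), and these changes differed by -0.14 ± 0.37 (adjusted p = 0.794). At day 8 it was higher in 1343KO (0.97 ± 0.26, adjusted p = 0.0138), a call lost when 1343KO day 8 replicate 2 (adjusted p = 0.0995) or either WT day 8 replicate (0.0542 and 0.0609) was left out, with no filter (0.0681) and on the 4 libraries alone (0.0865). An antisense gene that overlaps Psmb8 was listed at 0.

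Psmb9, the counterpart of Psmb6, was close to 1 FPKM. It had 3.05 and 1.45 FPKM at day 0, 4.39e-61 and 3.03 at day 8, then 0.816 and 0.864 at day 16 in 1343KO, against 1.09 and 0.838, 0.808 and 0.315, and 1.29 and 1.25 FPKM in WT. The pair of 1343KO day 8 libraries spanned almost the whole range of the gene, and no contrast of Psmb9 was called. Without 1343KO day 8 replicate 1 it was called higher in 1343KO at day 8 (adjusted p = 0.014), and without replicate 2 it was called lower than at day 0 (adjusted p = 0.0152). Psmb9 overlaps Tap1 on the opposite strand, where a mean of 3.20 FPKM was listed, so the split of fragments between them is uncertain.

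Psmb10, the counterpart of Psmb7, was the immunoproteasome subunit with the most RNA in ES cells, and it fell in WT. It had 15.7 and 28.5 FPKM at day 0, 14.7 and 8.64 at day 8, then 6.49 and 14.6 at day 16 in 1343KO. WT libraries had 30.1 and 33.4, 3.95 and 5.19, and 6.95 and 5.08 FPKM. The 1343KO replicates lay far apart at each day, and at day 16 their range overlapped that of WT. In WT the log2 change was -2.56 ± 0.38 (SE) to day 8 (adjusted p = 0.000414) and -2.23 ± 0.38 to day 16 (adjusted p = 0.000712). In 1343KO it was -0.85 to day 8 (adjusted p = 0.148) and -1.04 to day 16 (adjusted p = 0.0766, and 0.0275 without 1343KO day 16 replicate 2).

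At day 8 Psmb10 was higher in 1343KO by 1.15 ± 0.38 (adjusted p = 0.0373). The call was lost when 1343KO day 8 replicate 1 (adjusted p = 0.212) or either WT replicate of day 0 (0.0519 and 0.052), day 8 (0.16 and 0.0739) or day 16 (0.0532 and 0.0531) was left out, and with no filter (0.254), TPM scaling (0.0624) or the 4 libraries alone (0.063). At day 16 the difference was 0.63 ± 0.38 (adjusted p = 0.197, and 0.0387 without 1343KO day 16 replicate 1). Psmb10 lies on chromosome 8, whose genes as a group were at a median of -0.25 at day 8 against 0.12 for the others.

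**Figure D3:**
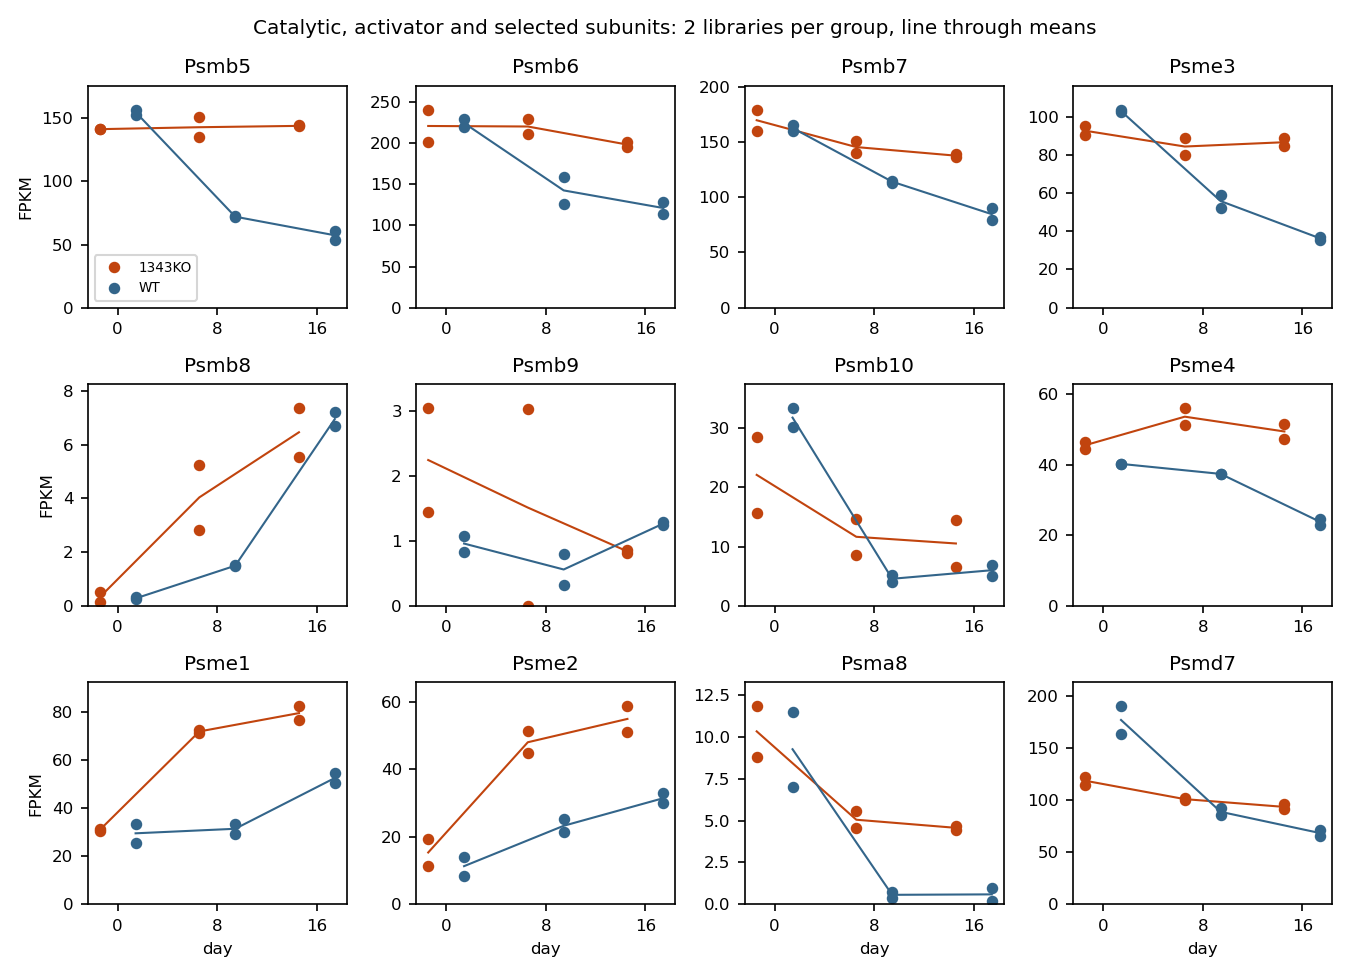
FPKM by day in the 2 libraries of each group for the catalytic subunits Psmb5 to Psmb10, the activators Psme1 to Psme4, Psma8 and Psmd7, with 1343KO left of WT at each day, a line through the group means and a linear axis from 0. Psmb5, Psmb6, Psmb7, Psme3 and Psmd7 descend in WT, Psmb8 climbs in both lines, and Psme1 and Psme2 climb with 1343KO above WT at days 8 and 16.

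Within a library, the immunoproteasome subunits were a small share of the summed FPKM of the 6 catalytic genes. The share was 3.44% and 5.45% at day 0, 3.25% and 3.30% at day 8, then 2.999% and 4.15% at day 16 in 1343KO, against 5.39% and 6.10%, 1.97% and 1.98%, and 5.49% and 4.80% in WT. WT was thus lowest at day 8, when its Psmb10 was low and its Psmb8 not yet high. The order of the other groups depended on the averaging. From the mean of log2(FPKM + 1) of each trio of genes the share was 1.98%, 2.41% and 2.65% in 1343KO at days 0, 8 and 16 and 1.84%, 1.66% and 4.58% in WT. Thus day 16 stood above day 0 in both lines and 1343KO above WT at day 0. The 2 1343KO libraries of day 8 lay apart, at 1.69% and 3.13%, below and above the 2.04% and 1.91% of day 0. The part of Psmb10 in the immunoproteasome RNA was smaller at day 16 than at day 0 in both lines. Psmb10 held 81.6% and 94.7% of the immunoproteasome RNA at day 0 and 44.2% and 69.4% at day 16 in 1343KO, against 95.8% and 96.7% and then 46.5% and 37.6% in WT. Psmb8 held 50.2% and 26.5% at day 16 in 1343KO and 44.9% and 53.2% in WT, and Psmb10 was still the larger part in 1343KO replicate 2 and WT replicate 1. Taken against its own counterpart alone, Psmb8 was 4.89% and 3.71% of the pair with Psmb5 at day 16 in 1343KO and 11.1% and 10.6% in WT. Psmb8 itself was at a like level in both lines then, and Psmb5 was lower in WT.

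**Figure D4:**
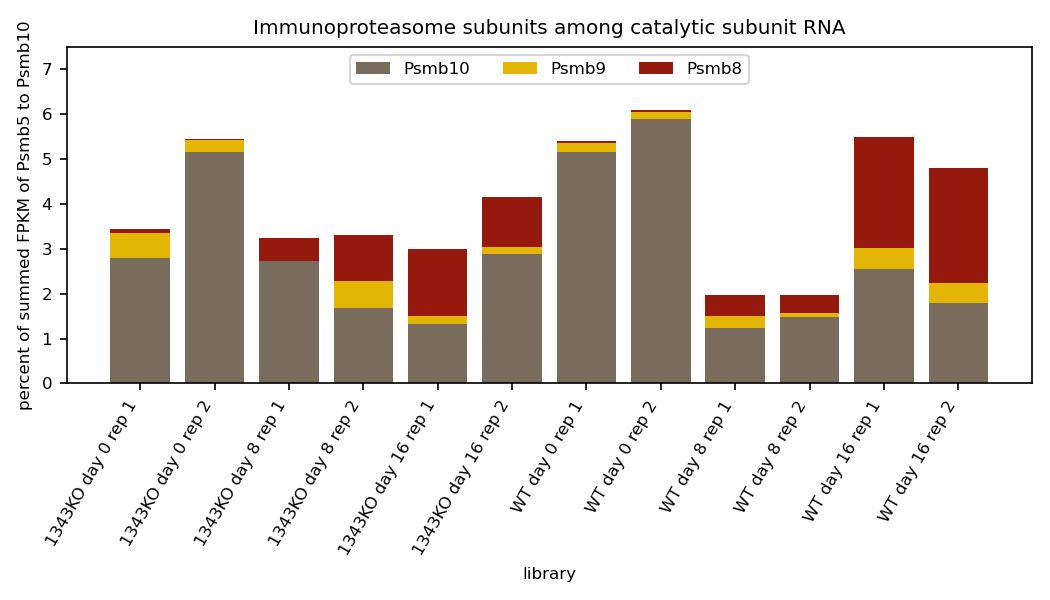
Psmb8, Psmb9 and Psmb10 as stacked percent of the summed FPKM of Psmb5 to Psmb10 in each library, 1343KO left of WT. The bars are mostly Psmb10 in the day 0 libraries, and Psmb8 takes 26.5% to 53.2% of the bar at day 16.

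The activator subunits split by type. Psme1, the alpha subunit of PA28, had 30.5 and 31.4 FPKM at day 0, 71.5 and 72.6 at day 8, then 76.8 and 82.6 at day 16 in 1343KO. WT had 33.6 and 25.5, 29.3 and 33.5, and 50.6 and 54.6 FPKM. Both lines climbed, 1343KO by day 8 and WT after it, and the lines did not overlap at days 8 and 16. Psme1 was higher in 1343KO by 1.18 ± 0.12 at day 8 (adjusted p = 6.89e-05) and 0.59 ± 0.12 at day 16 (adjusted p = 0.00286). Its rise to day 16 was 1.34 in 1343KO (adjusted p = 8.18e-05) and 0.82 in WT (adjusted p = 0.000281). The difference of the rises to day 8, 1.10 ± 0.17, was called (adjusted p = 0.00171). That of the rises to day 16, 0.51 ± 0.17, was called as well (adjusted p = 0.0416), but not without either replicate of 1343KO at day 0 (0.0972 and 0.0761), day 8 (0.0576 and 0.0577) or day 16 (0.0639 and 0.117), WT day 0 replicate 1 (0.112), or either WT day 16 replicate (0.118 and 0.0624), nor with no filter (0.198), either other scaling (0.214 and 0.116), the replicate block (0.0558) or the libraries compared alone (0.0674).

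Psme2, the beta subunit of PA28, had 11.3 and 19.3 FPKM at day 0, 44.6 and 51.3 at day 8, then 51.1 and 58.7 at day 16 in 1343KO, against 14.1 and 8.41, 25.1 and 21.3, and 30.0 and 32.8 FPKM in WT. It rose to day 16 in both lines, by 1.82 ± 0.26 in 1343KO (adjusted p = 0.000983) and 1.44 ± 0.26 in WT (adjusted p = 0.000918). The 1343KO libraries were above those of WT at days 8 and 16, by 1.02 ± 0.26 (adjusted p = 0.011) and 0.79 ± 0.26 (adjusted p = 0.0289). The day 8 call ended without 1343KO day 8 replicate 2 (0.0649) or WT day 8 replicate 2 (0.0679) and with no filter (0.105). At day 16 leaving out any 1 of the 4 libraries ended the call, at adjusted p of 0.0616 and 0.13 for 1343KO and 0.125 and 0.0772 for WT, and with no filter (0.198), median-of-ratios scaling (0.0953) or TPM scaling (0.0697). A near-identical copy, Psme2b, was listed at 1.78 to 13.3 FPKM, 11.2% to 27.04% of the sum of both genes, so the split between them is uncertain.

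Set against the constitutive subunits in the same library, PA28 gained in both lines. The ratio of the mean of Psme1 and Psme2 to the mean of Psmb5, Psmb6 and Psmb7 was 0.116 and 0.146 at day 0, 0.334 and 0.375 at day 8, then 0.404 and 0.437 at day 16 in 1343KO. In WT it was 0.130 and 0.0955, 0.262 and 0.238, and 0.469 and 0.488. Thus 1343KO was above WT at day 8 and WT above 1343KO at day 16, where its constitutive subunits were lower.

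Psme3, or PA28 gamma, a nuclear activator, fell in WT, where Psme1 and Psme2 rose. It had 90.3 and 94.9, 88.7 and 80.0, and 88.6 and 84.6 FPKM at days 0, 8 and 16 in 1343KO, against 104 and 102, 52.4 and 59.1, and 37.2 and 35.3 FPKM in WT. WT fell by 1.48 to day 16 (adjusted p = 3.61e-07), the change in 1343KO was -0.10 (adjusted p = 0.427), and the line difference at day 16 was 1.23 ± 0.08 (adjusted p = 1.99e-06). Psme4, or PA200, another nuclear activator, had 46.6 and 44.6, 51.2 and 56.1, and 51.5 and 47.4 FPKM in 1343KO, against 40.2 and 40.4, 37.4 and 37.5, and 24.7 and 22.9 FPKM in WT. It was higher in 1343KO at day 8 (0.51 ± 0.08, adjusted p = 0.000786) and day 16 (1.02 ± 0.08, adjusted p = 6.09e-06). Psmf1, the inhibitor PI31, stayed between 6.24 and 12.5 FPKM in all libraries. In 1343KO it had 12.5 and 12.5, 9.39 and 12.1, and 8.45 and 7.81 FPKM at days 0, 8 and 16. WT had 8.70 and 8.68, 8.55 and 8.02, and 6.24 and 9.60 FPKM. The lines did not overlap at days 0 and 8, with log2 differences of 0.48 and 0.33. Psmf1 did not pass between the lines at any of the 3 days. Its change to day 16 in 1343KO was -0.57 ± 0.18 (adjusted p = 0.0497). This call was lost without either 1343KO replicate of day 0 (0.139 and 0.147) or day 16 (0.114 and 0.178), either WT replicate of day 0 (0.068 and 0.068) or day 8 (0.0691 and 0.069), with a pseudocount of 0.1 (0.0545), no filter (0.204), the block (0.0532) or the libraries compared alone (0.0578).

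The counts by subcomplex that follow are to be read beside the shares of all genes. Of all genes, 23.3% were called higher in 1343KO at day 8 and 28.5% at day 16. In the alpha ring, which gates the barrel, 7 of 8 members were higher in 1343KO at day 8 and 8 of 8 at day 16, with a median log2 difference of 0.77 at day 16. Psma6 had 156 and 147, 158 and 134, and 150.1 and 145 FPKM in 1343KO at days 0, 8 and 16, against 159 and 176, 99.7 and 95.2, and 87.4 and 80.6 FPKM in WT. The groups were apart at days 8 and 16 (day 16, 0.81 ± 0.09, adjusted p = 5.94e-05). Psma7 had 126 and 139.7, 148 and 119, and 141 and 146 FPKM in 1343KO, against 122 and 139, 67.5 and 77.3, and 73.9 and 68.5 FPKM in WT (day 8, 0.87 ± 0.12, adjusted p = 0.000308). Psma8 was scarce at day 0, with 11.9 and 8.84 FPKM in 1343KO and 7.04 and 11.5 in WT at day 0. At day 16 it was at 4.70 and 4.44 FPKM in 1343KO and at 0.967 and 0.197 in WT (1.86 ± 0.30, adjusted p = 0.000592).

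Of the beta subunits without catalytic activity, 4 of 4 were higher in 1343KO at day 8 and at day 16. Psmb3 led them, with 225 and 205, 186 and 164, and 163 and 160.0 FPKM in 1343KO at days 0, 8 and 16, against 219 and 203, 83.2 and 87.8, and 79.4 and 80.1 FPKM in WT. WT was already low at day 8, and the difference was 1.02 ± 0.08 at day 8 (adjusted p = 9.19e-06) and 1.01 ± 0.08 at day 16 (adjusted p = 5.27e-06).

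In the base, 5 of 6 ATPases were higher in 1343KO at day 8 and 6 of 6 at day 16. The ATPase Psmc5 had 143 and 148, 121 and 126, and 125 and 123 FPKM in 1343KO, against 140.3 and 139, 62.3 and 65.4, and 58.1 and 53.5 FPKM in WT. Its difference of 1.14 ± 0.06 at day 16 had the smallest p of all members in that contrast (adjusted p = 6.68e-07). The scaffold Psmd1, the receptor scaffold Psmd2 and the ubiquitin receptor Psmd4 were higher at both days. Psmd1 had 95.5 and 90.2, 78.7 and 82.8, and 78.8 and 77.9 FPKM in 1343KO, against 98.6 and 97.4, 61.7 and 59.6, and 45.8 and 44.5 FPKM in WT (day 16, 0.78 ± 0.06, adjusted p = 6.44e-06).

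In the lid, 6 of 8 members were higher in 1343KO at day 8 and 7 of 8 at day 16. Psmd11, a scaffold of the lid, had 92.2 and 82.5, 70.6 and 70.2, and 66.0 and 62.2 FPKM in 1343KO, against 92.0 and 84.1, 48.7 and 45.2, and 42.4 and 38.4 FPKM in WT (day 8, 0.58 ± 0.09, adjusted p = 0.000583). The scaffold subunit Psmd13 had 62.2 and 65.1, 55.5 and 56.0, and 62.6 and 55.8 FPKM in 1343KO, against 63.2 and 63.6, 40.6 and 34.2, and 30.5 and 27.9 FPKM in WT (day 16, 1.00 ± 0.10, adjusted p = 2.37e-05). A processed pseudogene listed at a mean of 26.3 FPKM lies within Psmd13 on the same strand, so its fragments may have been split. Psmd7, lower in 1343KO at day 0, was higher at day 16, with 91.1 and 96.0 FPKM in 1343KO and 65.6 and 71.0 FPKM in WT (0.45 ± 0.08, adjusted p = 0.00156).

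Psmd8 left the common pattern. It had 85.1 and 77.9, 89.8 and 89.1, and 77.8 and 88.3 FPKM in 1343KO at days 0, 8 and 16, against 92.2 and 88.1, 65.9 and 70.1, and 90.4 and 98.4 FPKM in WT. In WT it fell by 0.40 to day 8 (adjusted p = 0.00274) and rose by 0.47 ± 0.08 from day 8 to day 16 (adjusted p = 0.00279), and its change from day 0 to day 16 was 0.06 (adjusted p = 0.525). At day 16 the line difference was -0.18 ± 0.08 (adjusted p = 0.0903), and Psmd8 was called lower in 1343KO with median-of-ratios scaling (0.00254), TPM scaling (0.0109) or without 1343KO day 16 replicate 2 (0.0409). The day 8 difference of 0.39 ± 0.08 (adjusted p = 0.00412) was not called with TPM scaling (0.0915).

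The assembly chaperones help to build the barrel and the base and leave afterwards. Of these 7, 3 were higher in 1343KO at day 8 and 3 at day 16, and 0 were lower. Of all genes, 23.3% and 28.5% were called higher on these days. The log2 differences of the 7 ran from -0.41 to 1.01 at day 8 and from -0.49 to 1.33 at day 16. Psmg2, which pairs with Psmg1 to assemble the alpha ring, had 43.5 and 34.2, 48.2 and 43.6, and 44.3 and 44.8 FPKM in 1343KO, against 40.4 and 34.3, 21.3 and 25.5, and 16.7 and 17.7 FPKM in WT. The lines overlapped at day 0 and not later (day 8, 0.94 ± 0.14, adjusted p = 0.000466; day 16, 1.33 ± 0.14, adjusted p = 3.56e-05). Psmd9, another base chaperone, did not pass in any contrast.

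Promoters of 39 of the 47 members were found in RefSeq (build GRCm38.p6), as 42 windows of 250 bases before to 50 after the annotated start. They are shown for Psmb5, Psmb8, Psmb10 and Psme1, which took 4 different courses. Motifs were searched on both strands in these windows and in all 32851 windows of that length, and a match is a description of the letters. The gamma-activated site TTCNNNGAA was in 3 of the 42 member windows and in 8.30% of all windows. The core of the interferon-stimulated response element GAAANNGAAA was in 5 and in 3.44%. The NF-Y box CCAAT was in 13 and in 37.4%, and the core of the antioxidant response element TGACNNNGC was in 6 and in 12.4%. Matches are in capitals, and no 2 of them overlap in these 4 windows.
Psmb5: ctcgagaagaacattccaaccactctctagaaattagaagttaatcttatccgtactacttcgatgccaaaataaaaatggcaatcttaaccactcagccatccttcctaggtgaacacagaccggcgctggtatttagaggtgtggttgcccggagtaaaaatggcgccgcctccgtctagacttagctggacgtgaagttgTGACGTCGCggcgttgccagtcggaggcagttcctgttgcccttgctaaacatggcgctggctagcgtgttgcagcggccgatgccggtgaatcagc
Psmb8: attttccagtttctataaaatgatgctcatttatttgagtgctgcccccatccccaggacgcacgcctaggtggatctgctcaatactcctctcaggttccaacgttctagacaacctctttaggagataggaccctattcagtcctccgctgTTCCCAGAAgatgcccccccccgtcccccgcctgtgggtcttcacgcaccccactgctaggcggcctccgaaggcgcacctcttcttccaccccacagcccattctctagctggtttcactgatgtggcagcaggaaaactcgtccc
Psmb10: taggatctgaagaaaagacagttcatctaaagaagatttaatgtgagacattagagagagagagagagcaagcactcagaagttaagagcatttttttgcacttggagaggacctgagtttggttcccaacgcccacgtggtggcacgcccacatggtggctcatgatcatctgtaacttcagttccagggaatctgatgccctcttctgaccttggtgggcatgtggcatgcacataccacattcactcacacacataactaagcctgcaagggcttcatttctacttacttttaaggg
Psme1: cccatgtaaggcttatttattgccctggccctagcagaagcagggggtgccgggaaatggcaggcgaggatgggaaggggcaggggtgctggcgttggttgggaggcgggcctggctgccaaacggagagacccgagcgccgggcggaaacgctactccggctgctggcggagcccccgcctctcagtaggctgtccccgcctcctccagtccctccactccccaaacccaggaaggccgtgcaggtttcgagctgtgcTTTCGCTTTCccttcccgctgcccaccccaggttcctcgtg
The windows are chr14:54617946-54618245 on the minus strand for Psmb5, chr17:34197945-34198244 on the plus strand for Psmb8, chr8:105938343-105938642 on the minus strand for Psmb10 and chr14:55578244-55578543 on the plus strand for Psme1. Psmb5 holds an antioxidant response element core that begins near base -46 from the start. Psmb8 holds a gamma-activated site that begins near base -96. Psme1 holds an interferon-stimulated response element core on the opposite strand, from base 10 after the start, and the Psmb10 window holds no match to the 4 motifs.

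The lists of other genes that follow are to be read beside the 28.5% of all genes called higher and the 24.1% called lower in 1343KO at day 16. Among 15 measured partners of the proteasome, 10 were higher and 1 lower. In WT 10 of them fell and 1 rose from day 0 to day 16, where 28.5% of all genes fell and 32.7% rose. Ubqln4, a shuttle for ubiquitinated proteins (1.08, adjusted p = 9.29e-06), the ubiquitin ligase Ube3c (0.59, adjusted p = 0.000421) and the deubiquitinase Usp14 (0.63, adjusted p = 0.000435) were among the higher ones. The lower one was the related shuttle Ubqln2, at 41.5 and 42.3 FPKM in 1343KO and 101 and 108 FPKM in WT (-1.30, adjusted p = 3.01e-06). Of 6 genes for ubiquitin and its activating enzymes, 5 were higher and 1 lower, with the E1 enzyme Uba1 foremost among the higher ones (0.80, adjusted p = 4.64e-06). Of 10 genes of the segregase p97 and its cofactors, 5 were higher and 2 lower, the lower share being near that of all genes.

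Of 12 regulators of proteasome genes, 4 were higher and 3 lower in 1343KO at day 16, near the shares of all genes in both directions. Nfyb and Nfyc, subunits of the CCAAT-binding factor NF-Y, were higher (0.84, adjusted p = 0.000927, and 0.82, adjusted p = 0.0025). Keap1, which holds the antioxidant factor Nrf2 in check (-0.58, adjusted p = 0.0036), and Ngly1, the enzyme that helps to activate Nrf1 (-0.86, adjusted p = 0.0196), were lower. Nfe2l1, which encodes Nrf1, the factor that raises proteasome genes when proteasome activity is short, was at 45.0 and 51.7 FPKM in 1343KO and 61.5 and 59.0 FPKM in WT at day 16 (-0.31, adjusted p = 0.0652).

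The peptides cut by the immunoproteasome are shown to T cells on class I molecules, and interferon raises both. Of 15 class I antigen presentation genes tested, 12 rose and 0 fell in WT from day 0 to day 16, and 6 rose and 0 fell in 1343KO. Of all genes, 32.7% rose and 28.5% fell in WT over that time, and 18.2% rose and 8.6% fell in 1343KO. At day 16, 8 of them were lower and 0 higher in 1343KO. B2m, the light chain of class I molecules, was at 44.6 and 48.3 FPKM in 1343KO and 544 and 525 FPKM in WT at day 16 (-3.50, adjusted p = 1.23e-08), and the heavy chain H2-K1 was lower by 1.51 (adjusted p = 1.86e-05). Of 18 interferon response genes tested, 8 were higher and 1 lower in 1343KO at day 8, where 23.3% of all genes were higher and 19.6% lower, and 3 were higher and 10 lower at day 16. Irf1, the interferon regulatory factor that drives class I and immunoproteasome genes, was at 36.7 and 34.3 FPKM in 1343KO and 6.69 and 8.28 FPKM in WT at day 16 (2.11, adjusted p = 3.94e-06). Ifit3, an antiviral effector, was lower (-3.31, adjusted p = 3.88e-06).

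The lines also differed in the cells that their embryoid bodies held, and in bulk RNA fewer cells of a type and less RNA per cell cannot be told apart. The 9 pluripotency markers summed to 1347 and 1369 FPKM in 1343KO at day 16 and to 85.0 and 80.9 FPKM in WT, with 8 of 9 higher in 1343KO. Pou5f1, the pluripotency factor Oct4, was at 419 and 397 FPKM in 1343KO and at 23.6 and 18.7 FPKM in WT. As ES cells both lines carried the pluripotency markers of their label, at sums of 2411 and 2336 FPKM in 1343KO and 2250 and 2254 FPKM in WT. Of 12 macrophage markers, cells known for immunoproteasomes, 12 were lower in 1343KO at day 16, with sums of 8.87 and 8.87 FPKM against 351.9 and 332.2 FPKM in WT. Among the macrophage markers 6 and 5 were at 0 in the 1343KO libraries, the leukocyte antigen Ptprc in both of them, and 0 in those of WT. Psmb8 was at a like level in these libraries, as given above, and the part of macrophages in its RNA was not tested.

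The sums of 7 fibroblast markers were 53.2 and 48.2 FPKM in 1343KO and 3826 and 3944 FPKM in WT at day 16, and those of 8 yolk sac endoderm markers 102 and 94.8 FPKM and 11540 and 11550 FPKM. All 7 and all 8 were lower in 1343KO. The 8 endothelial markers summed to 42.7 and 44.7 FPKM in 1343KO and 121 and 124 FPKM in WT at day 16, with 7 of them lower in 1343KO. The 7 erythroid markers summed to 5.78 and 3.52 FPKM in 1343KO and 1152 and 1273 FPKM in WT at day 8, with 7 lower. At day 16 they summed to 22.9 and 28.95 FPKM in 1343KO and 31.7 and 48.9 FPKM in WT, with 1 lower. The pluripotency, macrophage, fibroblast, yolk sac endoderm and endothelial sums differed between the lines at day 16 along with the proteasome members. The erythroid sums differed most at day 8. The part of these cell types, erythroid cells included, in the proteasome differences was not tested at either day.

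The genes closest to Psmb8 in pattern, by Pearson correlation of log2(FPKM + 1) over the 12 libraries, were Fbxo32 (0.989), which encodes the substrate receptor of a ubiquitin ligase, Acss1 (0.967), a mitochondrial acetyl-CoA synthetase, Arhgef28 (0.965), Thbd (0.962), thrombomodulin, and Shroom3 (0.960), a regulator of cell shape. The 12 libraries fall into 6 groups of replicates, so these values are given as a description. Fbxo32 and Thbd reached 2.062 and 2.097 FPKM at most, at the low end of what the depth resolves.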

How the data were processed

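The authors deposited 1 FPKM value per gene and library. The submitters' processing notes list Cufflinks 2.1.1 and GRCm38 (mm10); no aligner, annotation or filter is named in the labels read here. Groups came from the titles. The labels do not say whether replicates were separate cultures, and p-values then cover the spread between these libraries alone, which may be technical. Starts in the table were raised by 1, after which 98.6% of genes and 46 of 47 members had GENCODE M21 coordinates.

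Depth was read from the steps between low FPKM values of transcripts of 1500 nt or longer, taking fragments as 200 nt; 85.8% to 88.7% of values were within 5% of whole fragments. No count test was run.

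The filter of at least 1 FPKM in 2 or more libraries left 16289 genes. limma 3.58.1 (R 4.3.3) fitted log2(FPKM + 1) with a mean for each group over all 12 libraries, using a trended prior variance and leaving 6 residual degrees of freedom. Two-sided p-values were adjusted by Benjamini-Hochberg separately in each of 11 contrasts. For 2 libraries against 2, the smallest p of an exact permutation test is 0.333. The fit was tested on simulated data modelled on the day 0 contrast of 1343KO with WT: of 200 changed genes among 16289 it found 78% of those changed 2-fold and 94% of those changed 4-fold, with 6.52% false calls. The changed genes were drawn only from those above a floor of expression in WT at day 0, with normally distributed noise. These rates therefore do not cover low members such as Psmb8 and Psmb9.

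The members, roles, lists and alternatives were chosen with earlier results of these data known. Named in full were the catalytic subunits, the activators, the inhibitor, members on chromosome 8 and, in each subcomplex, the called member with the smallest p between the lines at each day; genes outside the family came from 12 lists, up to 4 called ones each. Psma8, Psmd8, Psmd9, Psmd2, Psmd4 and Nfe2l1 were named after their values were seen. Shares and ratios within a library were not tested. A called gene of the ubiquitin list is not reported here. Other settings tried were pseudocount 0.1, no low-value filter, a filter on mean FPKM of 5, scaling by median of ratios or to TPM, a replicate block, robust variance moderation, fits to only the libraries compared, omission of each library, and ratios from mean log2 values. Motifs and figures used Python 3.11.15 with pandas 2.3.3, numpy 2.4.6 and matplotlib 3.10.9.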

Additional observations from a re-analysis of the deposited data

Results flagged for a closer look

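The lines changed differently between day 0 and the later days, by a test of the difference between their changes (1343KO minus WT, limma on the log2 scale, adjusted p under 0.05). In the change to day 8 this held for 25 members, with the 1343KO change the higher one in each. Of all genes, 15.6% were called in that direction and 12.7% in the other. Among the catalytic and activator subunits and the members with the smallest p, the differences were 1.11 for Psmb5, 0.66 for Psmb6, 1.71 for Psmb10, 1.10 for Psme1, 0.74 for Psme3, 1.00 for Psmb3 and 0.88 for Psmc5. The call of Psmb6 ended without 1343KO day 0 replicate 2 (adjusted p = 0.065), 1343KO day 8 replicate 1 (0.0645), WT day 0 replicate 1 (0.0591) or WT day 8 replicate 1 (0.056). That of Psmb10 ended without 1343KO day 0 replicate 1 (0.134), 1343KO day 8 replicate 1 (0.135), either WT replicate of day 0 (0.0823 and 0.109), day 8 (0.122 and 0.0701) or day 16 (0.0622 and 0.062).

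Of all genes, 21.7% were called with the higher change in 1343KO to day 16 and 18.2% with the lower one. In the change to day 16 the difference was called for 34 members, again with the 1343KO change the higher one in each. It was 1.45 for Psmb5, 0.74 for Psmb6, 0.64 for Psmb7, 0.51 for Psme1, 1.38 for Psme3, 0.85 for Psme4 and 1.08 for Psmc5. Of these, Psme1 was the one whose call ended without single libraries, as given above.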

How the results depend on the processing

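Counts of called members kept within 1.5 times of the values above in most fits. No called change of a single member turned its sign. The balance of called falls and called rises in 1343KO to day 8 and the time course of the immunoproteasome share did turn, as given above. The members' median change in 1343KO to day 8 stayed negative in every fit. With no filter the counts were 0 for the lines at day 0, 14 for WT from day 8 to day 16, 8 and 9 for the changes of 1343KO to days 8 and 16, and 12 for the difference of changes to day 8. On only the libraries compared they were 0, 9, 2 and 9 for the first 4 of these. Median-of-ratios scaling gave 15 for WT from day 8 to day 16, and TPM scaling 24 for the lines at day 8 and 13 for the difference of changes to day 8. Leaving out each library in turn gave 0 to 2, 30 to 38 and 36 to 39 for the lines at days 0, 8 and 16, 32 to 37, 40 to 43 and 13 to 22 for WT to day 8, to day 16 and between them, 4 to 15, 8 to 19 and 0 for 1343KO likewise, and 17 to 25 and 31 to 34 for the differences of changes. A lone library was then assumed to vary like the other groups. The immunoproteasome share taken from mean log2(FPKM + 1) values was 1.98%, 2.41% and 2.65% in 1343KO at days 0, 8 and 16 and 1.84%, 1.66% and 4.58% in WT, since a mean of logs weighs Psmb10 less. The 2.41% averaged 1.69% and 3.13% in the 2 libraries. With 1 library per group left the share ranged from 3.44% to 5.45%, 3.25% to 3.30% and 2.999% to 4.15% in 1343KO and from 5.39% to 6.10%, 1.97% to 1.98% and 4.80% to 5.49% in WT. Replicate numbers did not pair the libraries: deviations from group means correlated at -0.036 to 0.036 in 15 pairs of groups. With the replicate number as a block, 1, 36 and 39 members were called between the lines at days 0, 8 and 16 and 17 in 1343KO to day 16; of the 39, 38 were higher and 1, Psmd9, was lower (adjusted p = 0.0213). Where no cause is stated it was not tested. Depth limits Psmb8, Psmb9 and Psma8.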
